A study of Mus musculus with 16 samples.

Results

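The genes of the activin, inhibin and follistatin family were followed in differentiating mouse embryonic stem cells (mESCs). They comprise the ligand subunits Inha, Inhba and Inhbb, the ligand-binding antagonists Fst and Fstl3, and the related genes Fstl1, Fstl4 and Fstl5, which makes 8 of the 27925 named genes on the array and 11 of its 60273 gene probes. Fstl4 was chosen by its measured values, since its signal stood among the strongest rises at 24 h, and the family was then set together by name. Its differences at 24 h, from the vehicle and between the preparations, are therefore given as a description and without a test. A probe was kept when at least 1 group had it called well above background, by the scanner's software, on all of its arrays. By this filter 8 of the 11 probes and 7 of the 8 genes were kept, Fstl5 being the exception, out of 36729 kept probes in all.

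Cells of the CGR8-Myh6-GFP line, which carry a GFP reporter driven by the cardiomyocyte gene Myh6, differentiated spontaneously as monolayers and were treated from day 4. They received the vehicle DMSO, the hawthorn (Crataegus) extract WS1442 at 0.25 mg/ml, or the MeOH eluate of that extract at 0.1 mg/ml, for 6 h or 24 h. Each of the 6 groups was hybridised to 1-colour arrays, 2 for each DMSO group and 3 for each treated group, 16 in all. The doses of the 2 preparations differed, so a difference between them is one between these doses. The labels do not say whether replicates came from separate differentiations, and p-values then measure only the spread between these samples, which may be technical.

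Activins are dimers of beta subunits, encoded by Inhba and Inhbb, and signal through type II and type I receptor kinases to SMAD2 and SMAD3. A beta subunit joined to the alpha subunit encoded by Inha gives inhibin, which opposes activin at the receptor. Follistatin, the product of Fst, and the product of Fstl3 bind activins and keep them from their receptors, and Fst is itself a known activin target. Activin and the related ligand Nodal are best known in early embryonic cells for inducing mesoderm and endoderm.

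All RNA integrity numbers lay between 8.6 and 10, and between 55.1% and 63.0% of gene spots were well above background on an array. The lowest normalized log2 signal that the scanner called well above background ranged from 3.11 to 4.01 among arrays. All 5 markers of pluripotent cells and all 5 of mesoderm were well above background on the DMSO arrays, with Pou5f1 at a mean log2 signal of 13.71 and Mixl1 at 10.92 in DMSO at 6 h. The reporter's own gene Myh6 was at 3.63 in the same group, above background on 1 of 2 arrays. In DMSO at 24 h Myh6 was at 2.78, above background on 0 of 2 arrays. The cardiomyocyte genes Actc1, Myl7 and Tnnt2 were well above background on all DMSO arrays, at 14.41, 7.83 and 6.42 in DMSO at 6 h. The arrays of 6 h and of 24 h lay on 2 different slides, so levels at the time points cannot be told apart from the slides, and treated groups were set against DMSO of their own time point only. In RNA from whole cultures, fewer cells of a type and less RNA per cell cannot be told apart.

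The probes decide what was read of each gene, and their first 30 bases are shown 5′ to 3′, in the sense of the transcript, for the 3 genes whose values carry the results. For Fst and Inhba a single probe was printed on the array, and for Fstl4 there were 3 probes to 3 different transcripts. All were taken from the sequence column of the deposited scanner files.
Fst, NM_008046.2: tgttacagatccaaagacatagagtgatgt
Inhba, NM_008380.1: aagctgagacccatgtccatgctgtattac
Fstl4, XR_388477.1: aatctgaacatctgtttcatagcagtttcg
Fstl4, NM_177059.3: tcctgctgcccaggctgacacttctgtcag
Fstl4, XM_006533539.1: ttctttccagaaaacaaacacaaattctct
The array's annotation lists 3 transcripts for the NM_177059.3 probe of Fstl4, namely the curated mRNA, a predicted mRNA and the predicted non-coding transcript XR_388477. The XR_388477.1 probe is listed for that non-coding transcript alone, and the XM_006533539.1 probe for the predicted mRNA alone. The 5 probes were 51 to 57 bases long.

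Fst, which encodes the activin antagonist follistatin, was lower after 6 h with MeOH eluate. Its normalized log2 signal was 11.68 and 11.79 with DMSO, 11.53, 11.58 and 11.53 with WS1442, and 10.67, 10.78 and 10.72 with MeOH eluate. The 3 MeOH eluate arrays lay below all other arrays of that time point, and the 3 WS1442 arrays below both DMSO arrays. Fst fell by 1.01 on the log2 scale with MeOH eluate (SE 0.07, a 2.01-fold decrease; limma, adjusted p = 3.2e-07). With WS1442 the difference was -0.19 (SE 0.07, limma, adjusted p = 0.146), which did not pass the threshold of 0.05. The direct comparison of MeOH eluate with WS1442 at 6 h gave -0.83 (SE 0.06, limma, adjusted p = 3.68e-06). When each array was left out in turn, the change with MeOH eluate at 6 h lay between -1.07 and -0.95. The methods' t-test, applied within the 5 arrays, put its p at 0.000437 and its adjusted p at 0.0624.

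At 24 h the Fst levels lay closer together. The log2 signal was 10.91 and 10.94 with DMSO, 11.13, 10.91 and 11.08 with WS1442, and 10.77, 10.82 and 10.63 with MeOH eluate. The MeOH eluate arrays were again the lowest, and the WS1442 arrays overlapped with DMSO. Neither difference from DMSO passed the test, with -0.19 for MeOH eluate (SE 0.07, limma, adjusted p = 0.075) and 0.11 for WS1442 (SE 0.07, limma, adjusted p = 0.27). MeOH eluate was below WS1442 by -0.30 (SE 0.06, limma, adjusted p = 0.00527). The MeOH eluate effect differed between the time points by 0.82 (24 h minus 6 h, SE 0.10, limma, adjusted p = 0.000104), whereas the corresponding difference for WS1442 was 0.30 (SE 0.10, limma, adjusted p = 0.0618). In the order of its 6 group means Fst was highest with DMSO at 6 h (11.73 ± 0.08, SD, n = 2) and lowest with MeOH eluate at 6 h (10.72 ± 0.06, SD, n = 3). In that order, WS1442 and DMSO at 24 h shared their range, as did MeOH eluate at 24 h and at 6 h. The order runs across the slides of 6 h and of 24 h, from which the time points cannot be told apart.

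**Figure D1:**
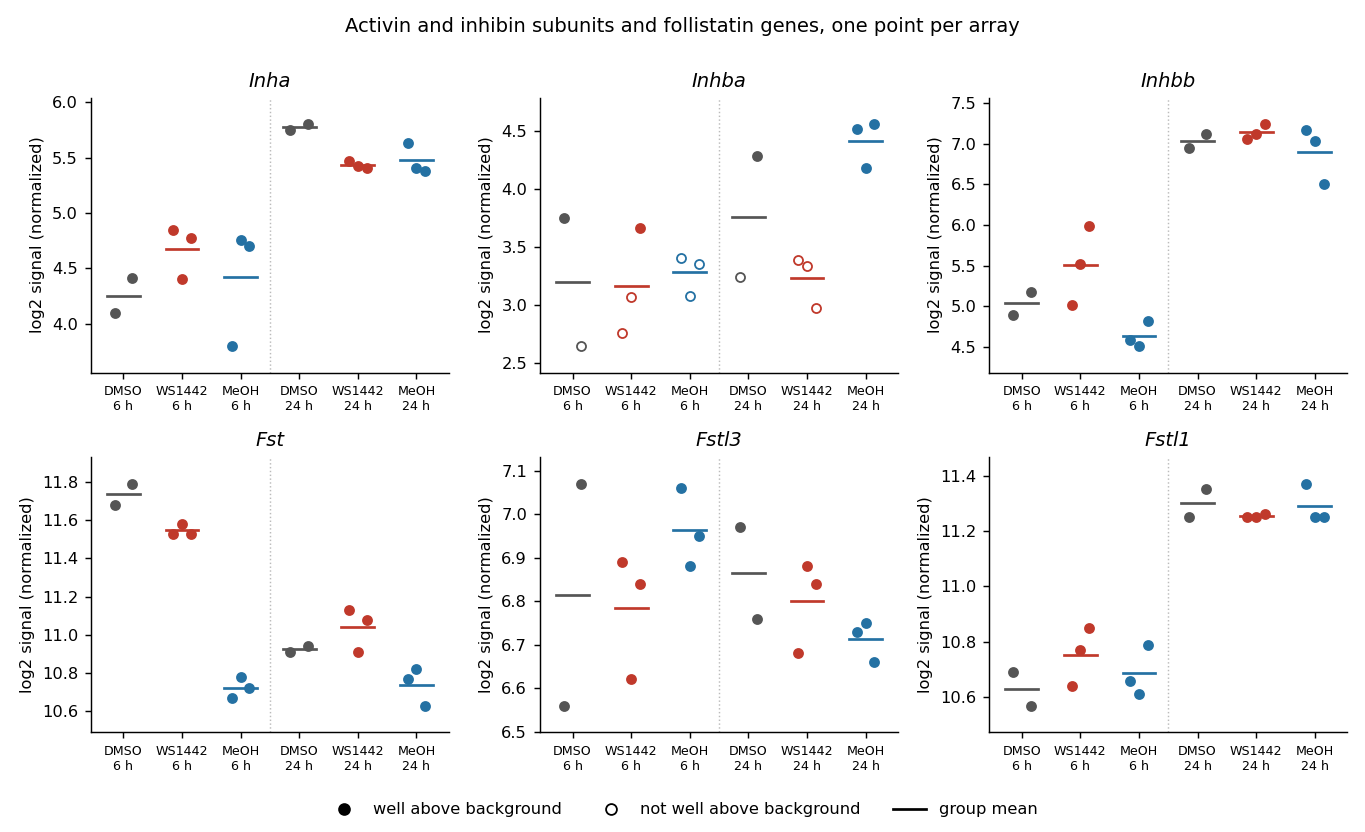
Normalized log2 signal (vertical axes) of Inha, Inhba, Inhbb, Fst, Fstl3 and Fstl1 on each of the 16 arrays by group (horizontal axes), with a bar at the group mean, filled points well above background and open points not. The 3 Fst values with MeOH eluate at 6 h sit between 10.67 and 10.78, below the 5 other arrays of that time point, and most Inhba points are open. The vertical axes do not start at 0 and differ between genes.

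Among the ligand subunits, the activin beta B subunit gene Inhbb was called in 1 comparison, that of the 2 preparations at 6 h. Its log2 signal at 6 h was 4.89 and 5.18 with DMSO, 5.02, 5.52 and 5.99 with WS1442, and 4.58, 4.51 and 4.82 with MeOH eluate. The WS1442 arrays reached above DMSO and overlapped with it, and the MeOH eluate arrays lay below both other groups. MeOH eluate was lower than WS1442 by -0.87 (SE 0.21, limma, adjusted p = 0.0186). Against DMSO the differences were 0.47 for WS1442 (limma, adjusted p = 0.304) and -0.40 for MeOH eluate (limma, adjusted p = 0.292). The call was lost with normexp background correction, where the difference was -0.34 (limma, adjusted p = 0.0685), and without WS1442 replicate 2 (-0.86), WS1442 replicate 3 (-0.63) or MeOH eluate replicate 1 (-0.85). At 24 h Inhbb had group means of 7.03 ± 0.12 (SD, n = 2) in DMSO, of 7.14 ± 0.09 (SD, n = 3) for WS1442 and of 6.90 ± 0.35 (SD, n = 3) for MeOH eluate. All 8 arrays of 24 h, from 6.50 to 7.24, lay above all 8 arrays of 6 h, a difference shared by the vehicle and both preparations and not to be told apart from the slide.

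Inhba, encoding the beta A subunit of activin A and inhibin A, was close to background. It was well above background on 1 of 2 DMSO arrays at each time point, on 1 of 3 arrays with WS1442 and 0 of 3 with MeOH eluate at 6 h, and on 0 of 3 with WS1442 at 24 h. Only with MeOH eluate at 24 h was it above background on all 3 arrays, and it passed the filter through that group alone. Its log2 signal at 24 h was 3.24 and 4.29 with DMSO, 3.39, 3.34 and 2.98 with WS1442, and 4.52, 4.18 and 4.56 with MeOH eluate. The MeOH eluate and WS1442 arrays did not overlap, and 1 DMSO array lay among those of MeOH eluate. Because the values of that group let the probe into the fit, its differences from other groups are given as a description and without a test. MeOH eluate was 1.69-fold higher than WS1442, where Inhba was not well above background, when a floor stood for the WS1442 signal. The floor was the lowest signal that was well above background on each array of the dimmer group, or the probe's own signal where that was higher. This fold is not a lower limit, since with normexp background correction the difference, 1.19 in the quantile-normalized values, was 0.24. Against DMSO the difference at 24 h was 0.66 with MeOH eluate, and it was -0.53 with WS1442 (95% interval -1.37 to 0.31, limma, adjusted p = 0.365).

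Inha, which encodes the alpha subunit that turns activin subunits into inhibin, was above background on all 16 arrays. The DMSO mean of its log2 signal at 6 h was 4.26 ± 0.22 (SD, n = 2), the WS1442 mean 4.67 ± 0.24 (SD, n = 3) and the MeOH eluate mean 4.42 ± 0.54 (SD, n = 3). At 24 h the values were 5.75 and 5.80 with DMSO, 5.47, 5.42 and 5.41 with WS1442, and 5.63, 5.41 and 5.38 with MeOH eluate. At 24 h both DMSO arrays lay above all 6 treated arrays, but the differences of -0.34 with WS1442 (95% interval -0.86 to 0.19, limma, adjusted p = 0.353) and -0.30 with MeOH eluate (95% interval -0.82 to 0.22, limma, adjusted p = 0.482) did not pass the test. As for Inhbb, all arrays of 24 h were above all arrays of 6 h, with the same reservation about the slide.

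Fstl3 encodes a secreted protein that binds activins and myostatin much as follistatin does. Its group means of log2 signal lay between 6.71 ± 0.04 (SD, n = 3, MeOH eluate at 24 h) and 6.97 ± 0.09 (SD, n = 3, MeOH eluate at 6 h). The 2 DMSO arrays of 6 h, at 6.56 and 7.07, spanned the whole range of the other groups. Its 4 changes against DMSO lay between -0.15 and 0.15, the widest 95% intervals reaching from -0.44 to 0.44, and limma's adjusted p was 0.522 or more. Fstl1 encodes a more distant secreted glycoprotein of the family, and its main probe gave group means from 10.63 ± 0.08 (SD, n = 2, DMSO at 6 h) to 11.30 ± 0.07 (SD, n = 2, DMSO at 24 h). Its changes against DMSO ran from -0.04 to 0.12, with 95% intervals within -0.19 and 0.27 and adjusted p of 0.384 or more by limma. The second Fstl1 probe, designed to an Ensembl transcript, was dimmer, with group means between 5.60 and 5.81, and gave no call either. For this probe the 24 h arrays did not stand above those of 6 h as they did for the main one.

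**Figure D2:**
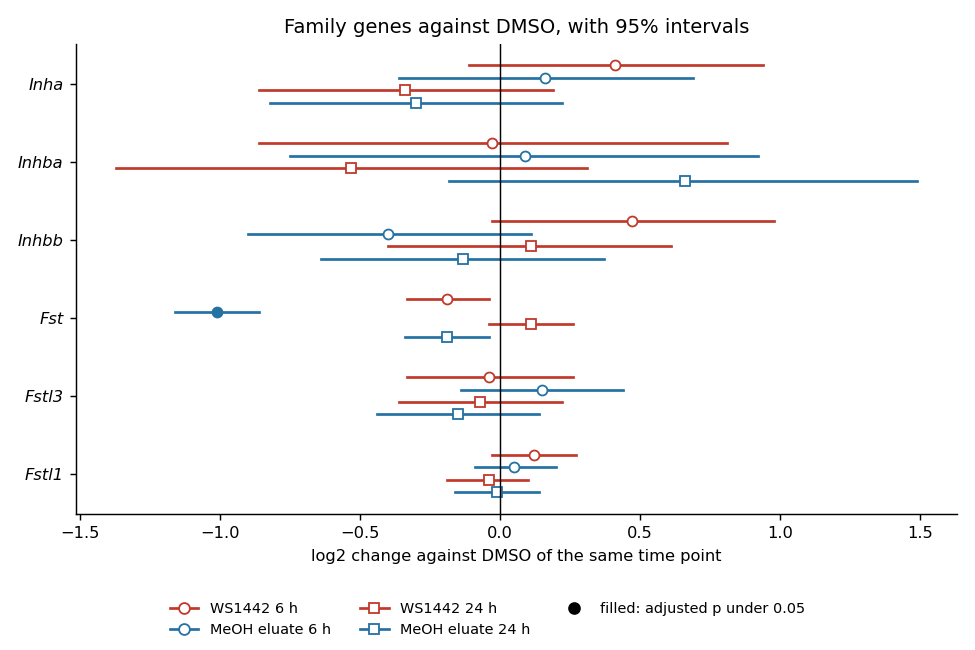
Log2 change against DMSO of the same time point (horizontal axis) for 6 family genes (vertical axis), with 95% intervals from limma, circles for 6 h and squares for 24 h, WS1442 in red and MeOH eluate in blue. The 1 filled symbol, with an adjusted p under 0.05, is Fst with MeOH eluate at 6 h, at -1.01, and the intervals of Inhba are the widest. The interval of Inhba with MeOH eluate at 24 h is drawn as a description, since its tests with that group are not given.

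Fstl4, a little-studied member that carries a follistatin-like domain, was read by its 3 probes in different ways. On the XR_388477.1 probe the log2 signal at 24 h was 1.38 and 2.68 with DMSO, 4.76, 3.92 and 4.86 with WS1442, and 4.68, 4.00 and 5.05 with MeOH eluate. It was well above background on all 6 treated arrays and on 0 of 2 DMSO arrays, so its level in DMSO was not reliably read. With the lowest well-above-background signal of each DMSO array in its place, Fstl4 was 1.97-fold higher with WS1442 and 2.06-fold higher with MeOH eluate. On WS1442 replicate 2 the signal, at 3.92, was below the 3.95 that stood for DMSO replicate 2. These folds are not lower limits, since with normexp background correction the measured differences of 2.48 and 2.54 were 0.38 and 0.40. Leaving out DMSO replicate 1 gave 1.85 and 1.92, and leaving out replicate 2 gave 3.15 and 3.22.

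At 6 h the same Fstl4 probe was well above background in every group. The log2 signal was 5.09 and 5.22 with DMSO, 4.99, 5.21 and 4.96 with WS1442, and 5.08, 4.89 and 4.96 with MeOH eluate. The differences from DMSO at 6 h were -0.10 for WS1442 (95% interval -0.90 to 0.69, limma, adjusted p = 0.932) and -0.18 for MeOH eluate (95% interval -0.97 to 0.61, limma, adjusted p = 0.801). Thus 5 of the 6 groups had means between 4.51 and 5.16, and DMSO at 24 h, with 2.03 ± 0.92 (SD, n = 2), stood apart from them. Levels at 6 h and at 24 h cannot be told apart from the slides. Between the preparations the difference at 24 h was 0.06. It is given without a test, since the rise on these arrays chose the gene.

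The other 2 Fstl4 probes were not well above background on any of the 16 arrays. The NM_177059.3 probe, which the annotation also lists for the non-coding transcript, gave 2.72 and 3.32 with DMSO at 24 h and between 1.70 and 3.69 on the 6 treated arrays of that time point. The treated arrays therefore lay on both sides of DMSO. The XM_006533539.1 probe gave values between 1.27 and 3.22. The higher signal at 24 h was thus read on the probe to the predicted non-coding transcript and not on the probe shared with the coding transcripts. Fstl5, which encodes another secreted protein with a follistatin-like domain, did not reach that level either on its only probe, with values between 1.26 and 2.61.

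**Figure D3:**
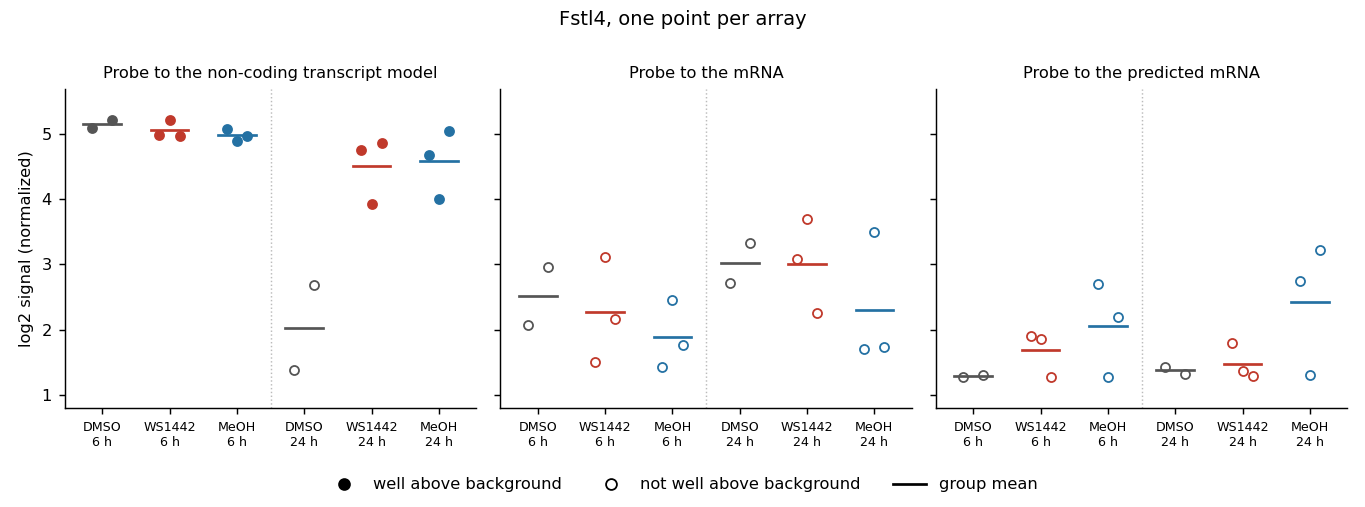
Normalized log2 signal (vertical axis) of the 3 Fstl4 probes on each of the 16 arrays by group (horizontal axes), with a bar at the group mean, filled points well above background and open points not. On the probe to the non-coding transcript model the 2 DMSO arrays of 24 h, at 1.38 and 2.68, are the only open points, and on the other 2 probes every point is open.

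The members' calls were counted beside those of all kept probes. With WS1442 at 6 h, 0 of 7 tested members were called by limma (1 at an unadjusted p under 0.05, namely Fst; the methods' t-test gave 0 adjusted and 1 unadjusted), where 3.52% of all kept probes were called higher and 1.15% lower. With MeOH eluate at 6 h, 1 of 7 was called, Fst, in the lower direction, where 7.84% of all probes were higher and 8.39% lower. At 24 h, Fstl4 left aside, 0 of 6 members were called with WS1442 (0 at an unadjusted p under 0.05, the methods' t-test giving 0 adjusted and 1 unadjusted), beside 11.3% of all probes higher and 12.2% lower. With MeOH eluate at 24 h, Inhba left aside as well, it was 0 of 5 (1 unadjusted, Fst, and 0 by the methods' t-test either way), beside 8.92% higher and 8.2% lower. Between the preparations 2 of 7 members differed at 6 h (Fst and Inhbb), where 11.6% of all probes were called in either direction. At 24 h Fst alone was called, with Inhba and Fstl4 left aside as above, where 13.6% of all probes were called. Fst stayed called there when any 1 of the 6 arrays was left out. The effect differed between time points for 0 of 6 members with WS1442 (2 unadjusted, Fst and Inha). With MeOH eluate, Inhba left aside, it differed for 1 of 5, Fst. Of all probes 11.4% and 7.09% were called, in the same order. The median change of the members against DMSO, Inhba counted, was -0.03 and 0.05 at 6 h for WS1442 and MeOH eluate. At 24 h, Fstl4 left aside, it was -0.06 and -0.14 in that order, and that of all probes was between -0.01 and 0.02.

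Genes known as targets of SMAD2 and SMAD3, which relay activin, Nodal and TGF-beta signals to the nucleus, were counted alongside the family. In either direction 4.67% and 16.2% of all probes were called at 6 h and 23.5% and 17.1% at 24 h, for WS1442 and MeOH eluate in that order, and these shares are the background of this and the following list counts. Of 16 tested, 7 fell with WS1442 at 6 h, with a list median of -0.37, and with MeOH eluate 11 fell and 1 rose, with a median of -0.70. Gsc, a homeobox gene of the organizer and early mesendoderm, had a log2 signal of 11.95 ± 0.16 in DMSO, 10.97 ± 0.09 in WS1442 and 9.29 ± 0.08 in MeOH eluate (SD, 2 arrays and 3 and 3). Mixl1, a homeobox gene of the primitive streak, fell by 2.39 with MeOH eluate (SE 0.07, limma, adjusted p = 2.36e-11) and by 0.99 with WS1442 (SE 0.07, limma, adjusted p = 3.2e-06). Lefty1, a secreted inhibitor of Nodal, fell by 1.84 and by 1.06 in the same order, and its relative Lefty2 by 1.71 and by 0.69. Fst was thus among the genes lower with MeOH eluate at 6 h, with a smaller change than Gsc, Mixl1, Lefty1 and Lefty2. Mixl1 and Eomes are also on the list of mesoderm markers, of which 2 of 5 fell with each preparation at 6 h. The log2 of the summed signal of that list was 11.82 to 11.83 with DMSO, 11.32 to 11.49 with WS1442 and 10.84 to 10.92 with MeOH eluate at 6 h. Bright genes weigh most in such a sum, and Mixl1, at 10.92, was the brightest of the list in DMSO at 6 h. Mesp1, Kdr and Pdgfra had means of 7.97, 8.94 and 9.06 with MeOH eluate at 6 h, none of them below DMSO. The median change of the mesoderm list was -0.07 with WS1442 and 0.05 with MeOH eluate, so the lower sum does not describe the list as a whole. Of 3 tested endoderm markers 2 fell with MeOH eluate, Foxa2 by 0.71 and Sox17 by 0.65, and their summed signal was 10.01 to 10.10 with DMSO, 9.91 to 9.94 with WS1442 and 9.67 to 9.96 with MeOH eluate. The pluripotency gene Nanog fell by 0.94 with MeOH eluate, while the summed signal of its list was 13.73 to 13.82 with DMSO and 13.70 to 13.78 with MeOH eluate. That sum mostly followed Pou5f1, at 13.71 in both groups, and the median change of the pluripotency list was -0.40. Of 3 tested cardiomyocyte markers 1 rose with MeOH eluate at 6 h, Myl7 by 1.05, and the median change of the list was -0.14. Its summed signal was 14.36 to 14.50 with DMSO and 14.10 to 14.26 with MeOH eluate. Of 6 cardiac progenitor markers 1 rose, Isl1 by 0.55, and of 6 markers of neuroectoderm and neurons 1 rose, Map2 by 0.67. The sums of these 2 lists overlapped between DMSO and MeOH eluate. The part of any of these cells in the Fst values was not tested.

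At 24 h the same target list was divided. With WS1442 4 genes rose and 5 fell (median -0.05), and with MeOH eluate 4 rose and 6 fell (median -0.06). Bambi, a membrane pseudoreceptor that dampens BMP and TGF-beta signals, rose by 1.07 with WS1442 (SE 0.13, limma, adjusted p = 5.65e-05). Nodal rose by 0.84 with MeOH eluate (SE 0.13, limma, adjusted p = 0.000407), and Mixl1 fell by 1.20 (SE 0.07, limma, adjusted p = 5.13e-08). Of 6 tested markers of neuroectoderm and neurons, 4 rose with WS1442 and 2 with MeOH eluate at 24 h, while Neurod1 was not tested. Their summed log2 signal was 12.41 to 12.46 with DMSO, 12.55 to 12.63 with WS1442 and 12.56 to 12.69 with MeOH eluate. Among the lists of other cells, those of cardiac progenitors, mesoderm, and endothelium and blood had lower sums at 24 h. The sums for pluripotent cells, endoderm and cardiomyocytes overlapped with DMSO. For pluripotent cells and cardiomyocytes the sum mostly followed 1 bright gene, Pou5f1 at 12.85 and Actc1 at 13.72 in DMSO at 24 h. Of 3 tested cardiomyocyte markers, 2 were nevertheless called lower for each preparation, namely Myl7 and Tnnt2. Tnnt2 changed by -0.35 and -0.51 for WS1442 and MeOH eluate, which was also the median of the cardiomyocyte list. The summed log2 signal of cardiac progenitor markers was 10.20 to 10.26 with DMSO, 9.89 to 10.05 with WS1442 and 9.24 to 9.50 with MeOH eluate. That of mesoderm markers was 11.56 to 11.59, 11.26 to 11.33 and 10.89 to 11.08, and that of endothelium and blood 9.24 to 9.24, 8.62 to 8.76 and 8.51 to 8.76, in the same order. With WS1442 the endoderm gene Sox17 fell by 1.24 and the cardiomyocyte gene Myl7 fell by 1.17, and with MeOH eluate Sox17 fell by 1.65 and Myl7 fell by 2.02. In the other direction, the endoderm gene Afp rose by 0.51 and the cardiac progenitor gene Mef2c by 0.48 with WS1442. The blood gene Hbb-bh1 rose by 1.45 with MeOH eluate and was well above background on 1 of 2 DMSO arrays. Whether any of these cells had a part in the Fstl4 values of 24 h was not tested.

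**Figure D4:**
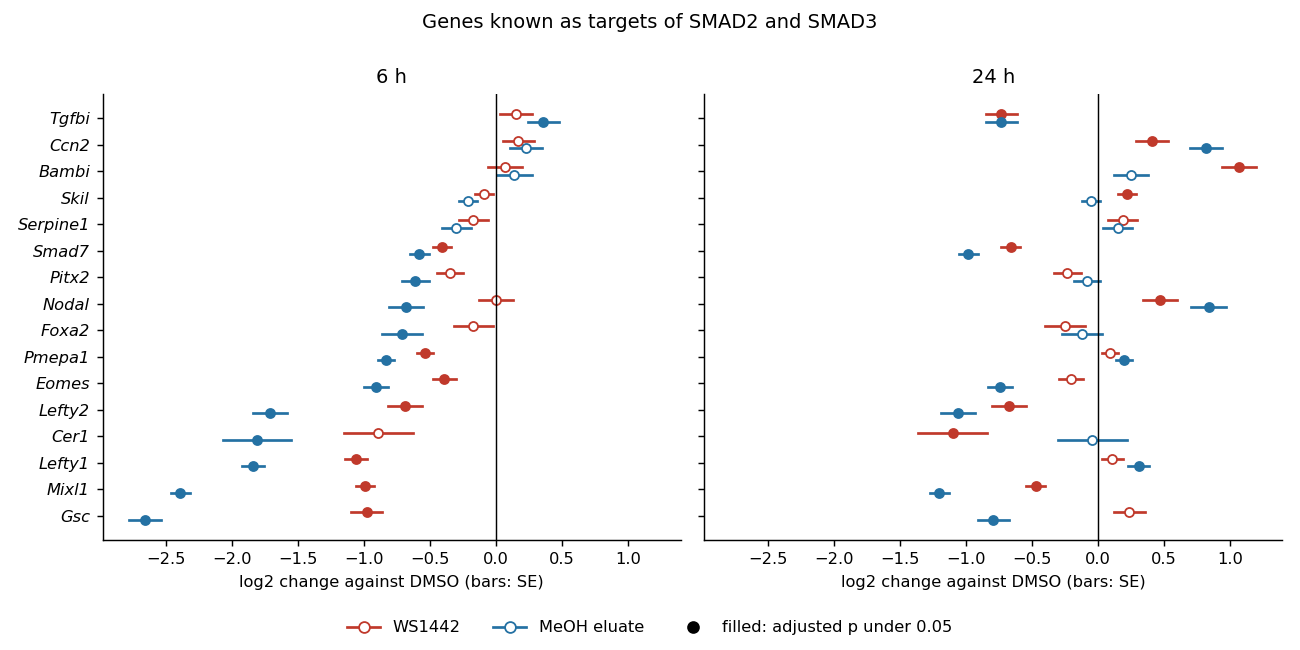
Log2 change against DMSO (horizontal axes) of 16 genes known as targets of SMAD2 and SMAD3 (vertical axis) at 6 h (left) and 24 h (right), WS1442 in red and MeOH eluate in blue, with bars for the standard error and filled points for an adjusted p under 0.05. At 6 h, 7 points of WS1442 and 11 of MeOH eluate are filled below 0, with Gsc at -2.66 at the far end, and at 24 h filled points lie on both sides of 0.

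Of 13 tested receptor and co-receptor genes, 2 rose and 1 fell with each preparation at 6 h, and Acvr1b was not tested. Tdgf1, which encodes the Nodal co-receptor Cripto, fell by 1.17 with MeOH eluate (SE 0.07, limma, adjusted p = 5.7e-08) and by 0.45 with WS1442 (SE 0.07, limma, adjusted p = 0.00217). Tgfbr2, the type II receptor for TGF-beta, rose by 0.66 and by 0.34 in the same order. Acvr2b, a type II receptor for activin, rose by 0.36 with MeOH eluate and by 0.28 with WS1442. At 24 h 3 rose and 3 fell with WS1442 (6 called, but 3 without DMSO replicate 1 and 2 without WS1442 replicate 3), and 1 rose and 3 fell with MeOH eluate. There the activin type II receptor Acvr2a fell by 0.44 with MeOH eluate (SE 0.09, limma, adjusted p = 0.0033). The medians of the list lay between -0.04 and 0.09.

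Of 15 tested SMADs and nuclear partners, 1 rose and 2 fell with WS1442 and 2 rose and 3 fell with MeOH eluate at 6 h, and at 24 h 4 rose and 2 fell, and 2 rose and 4 fell. At 6 h the 3 calls with WS1442, Smad7 and Smad3 among them, were lost without DMSO replicate 1, and the 5 with MeOH eluate were 3 without DMSO replicate 2. Smad7, the inhibitory SMAD that is induced by the pathway, fell in all 4 comparisons, by 0.41 and 0.58 at 6 h and by 0.66 and 0.98 at 24 h for WS1442 and MeOH eluate. Smad3 rose at 6 h, by 0.38 with WS1442 (SE 0.06, limma, adjusted p = 0.00264) and by 0.54 with MeOH eluate (SE 0.06, limma, adjusted p = 1.85e-05). The list medians ran from -0.11 to 0.00.

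Of 14 tested other ligands of these receptors, 2 rose and 3 fell with WS1442 at 6 h (5 called, but 2 without either DMSO array) and 2 rose and 6 fell with MeOH eluate. The Nodal inhibitors Lefty1 and Lefty2 belong to the TGF-beta superfamily and were counted in this list. The morphogen gene Bmp4 and the cytokine gene Tgfb1 were among the latter, lower by -0.77 and -0.84. At 24 h 2 rose and 1 fell with WS1442 (5 called without DMSO replicate 2), and 6 rose and 3 fell with MeOH eluate (5 called without DMSO replicate 1). The median of this list was -0.14 and -0.24 at 6 h and 0.09 and 0.18 at 24 h. A list of other antagonists, which leaves out both Lefty genes and includes the membrane protein gene Bambi, held 10 tested genes. Of these 0 were called with WS1442 at 6 h by limma (1 at an unadjusted p under 0.05, 0 by the methods' t-test adjusted) and 2 fell with MeOH eluate (1 without either DMSO array). Of these Cer1, a Nodal and BMP antagonist, was well above background on only 1 of 3 MeOH eluate arrays (3.47 ± 0.47, against 5.28 ± 0.21 with DMSO, SD). Bmper, a BMP-binding protein of the endothelium, fell at 24 h by 0.89 with WS1442 (SE 0.08, limma, adjusted p = 1.15e-05) and by 1.46 with MeOH eluate (SE 0.08, limma, adjusted p = 4.61e-08). Besides it, Cer1 fell and Bambi rose with WS1442 at 24 h, which makes 1 higher and 2 lower, and Bmper was the only call with MeOH eluate.

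Of 10 other genes with a follistatin-like domain, 1 rose with WS1442 and 2 rose with MeOH eluate at 6 h, and at 24 h 3 rose and 1 fell with WS1442 and 3 rose with MeOH eluate. The WS1442 call at 6 h was Sparcl1, which was well above background on 0 of the 8 arrays of that time point, and it gave 0 calls under 7 of 12 alternatives and 4 of 5 omissions of an array. The MeOH eluate count at 6 h was 1 without either DMSO array or without MeOH eluate replicate 3, and the WS1442 count at 24 h was 1 without either DMSO array and 2 without WS1442 replicate 1 or 3. Sparc, which encodes a matrix protein, was higher by 0.45 with MeOH eluate at 24 h (SE 0.05, limma, adjusted p = 2.22e-05), and by 0.20 at 6 h. Proprotein convertases cleave the precursors of activin and Nodal, and 4 of their genes were tested. Pcsk6 rose by 0.29 with MeOH eluate at 6 h, and with WS1442 at 24 h Pcsk7 rose by 0.39 and Pcsk6 by 0.21. The list medians were -0.09 and 0.06 at 6 h and 0.14 and 0.07 at 24 h for WS1442 and MeOH eluate. Pcsk5 fell in every comparison with DMSO. Its decrease was 0.81 and 1.19 at 6 h and 1.51 and 1.96 at 24 h for WS1442 and MeOH eluate (SE 0.17 each, limma, adjusted p = 0.015, 0.000284, 3.81e-05 and 1.8e-06). The WS1442 call at 6 h was lost without DMSO replicate 1 and with the fit within the time point. With MeOH eluate 2 convertases were called at 6 h (1 without DMSO replicate 1) and 1 at 24 h (2 without DMSO replicate 2). All these lists were chosen with earlier results of the same arrays known, and their counts describe them only.

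Likeness of pattern was taken over the 16 arrays, with the DMSO mean of its own time point subtracted from each value. Fst was most like Apln, Ppp4r4 and She among 20923 genes compared, with Pearson's r of 0.982, 0.981 and 0.971. For Fstl4 on its detected probe the closest were 4930471G03Rik, Med28 and 1700108J01Rik (0.983, 0.973 and 0.967), each of them well above background on all 16 arrays. For Inhba the closest were Shisa2, Tmem60 and Sox4, at 0.796, 0.79 and 0.789. These coefficients share the arrays, the slides and the 6 groups among all genes, and they are given as a description.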

How the data were processed

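RNA of 16 cultures was labelled with Cy3 by the authors' service provider and hybridised to 1-colour Agilent arrays. The deposited scanner files hold background-subtracted intensity values of 62912 spots per array (Feature Extraction; the file headers name the mouse build mm9), and a deposited table holds the authors' quantile-normalized intensity values. None of its columns lay outside the 16 samples. For the 8 kept family probes its log2 values, recomputed from the deposited linear scale, differed from those used here by at most 0.03.

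Here limma 3.58.1 (R 4.3.3) was used for quantile normalization of the log2 values of all 16 arrays together. Files were read with Python 3.11.15 and plots drawn with matplotlib 3.10.9. Control spots and spots flagged as non-uniform were left out. Probes were named through their gene name or, where that was an accession, through RefSeq transcripts (GRCm38.p6, names only). Of the 11 family probes, 1 carried its symbol directly and 10 were named by accession. For genes with several kept probes the brightest stood for the gene.

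A model of 6 group means was fitted to all kept probes with limma (eBayes with trend), and p-values were adjusted over all kept probes by Benjamini and Hochberg. The fit was tested on simulated data. The tests of Fstl4 at 24 h, against DMSO and between the preparations, and those of the time difference were left out because its rise at 24 h chose the gene. Tests of Inhba with MeOH eluate at 24 h are not given, since it passed the filter through that group alone. The named genes were the 8 members, up to 4 called genes with the largest change per list and comparison, and the 3 genes most like Fst, Fstl4 and Inhba. Members and lists were chosen with earlier results of these data known. Array signals hold no molecule counts, so the number of arrays limits precision. In all, 12 alternatives and the omission of each of the 16 arrays were run. They comprised 75th percentile scaling, normexp background correction (offset 50), the authors' table, other filters and probe choices, fits within a time point, eBayes without trend, Student's t-test (called the methods' t-test because the methods name it for pairwise comparisons in general, whereas for the arrays they cite a reference and name no test), array weights, and replicate number or slide row as a block.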

Additional observations from a re-analysis of the deposited data

Results flagged for a closer look

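The effect of MeOH eluate on Fst differed between the time points, by 0.82 on the log2 scale (24 h minus 6 h, SE 0.10; limma, adjusted p = 0.000104), as tested by the interaction term. The change against DMSO was -1.01 at 6 h and -0.19 at 24 h. On the 3 MeOH eluate arrays of 6 h Fst lay below both DMSO arrays of that time point, and at 24 h the 3 MeOH eluate arrays again lay below both DMSO arrays. The DMSO mean itself was 11.73 at 6 h and 10.93 at 24 h, and the MeOH eluate means were 10.72 and 10.74 at the 2 time points, whose levels cannot be told apart from the slide. Leaving out each array in turn gave values from 0.77 to 0.88.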

How the results depend on the processing

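Fst with MeOH eluate at 6 h stayed lower and called under 11 of 12 alternatives. It stayed lower under all 5 omissions of an array of its groups (-1.07 to -0.95). The exception was the methods' t-test, which called 0 members in each comparison it was run on. In the main fit 1 was called with MeOH eluate at 6 h and 2 between the preparations at 6 h. Between the preparations at 24 h it was 1, Inhba and Fstl4 left aside. The t-test also took the SMAD2 and SMAD3 target counts from 7, 12, 9 and 10 to 0, 0, 0 and 1. It gave 0 calls in the other 6 pathway lists in all 4 comparisons with DMSO. Of all kept probes this t-test called 1, 5, 7 and 203 in the same 4 comparisons, and 6 and 245 between the preparations at 6 h and 24 h. Its counts of 0 therefore say little about these genes in particular. Under the other alternatives and the omissions, the counts of the target list stayed within 1.5 times, whereas those of the other lists moved further in some, with WS1442 at 6 h to 1 to 3 for receptors (from 3), 3 to 6 for ligands (from 5), 0 to 2 for genes with a follistatin-like domain (from 1) and 0 to 1 for convertases (from 1) under the other alternatives. Under these alternatives, genes with a follistatin-like domain gave 1 to 2 (from 2) with MeOH eluate at 6 h and 1 to 4 (from 4) with WS1442 at 24 h, antagonists 1 to 3 (from 2), 3 to 5 (from 3) and 1 to 2 (from 1) with MeOH eluate at 6 h and WS1442 and MeOH eluate at 24 h, and convertases 1 to 2 (from 1) with MeOH eluate at 24 h. Between the preparations at 6 h the count was 1 with normexp background correction and with the fit within the time point, and 1 to 2 when an array was left out. At 24 h, Inhba and Fstl4 left aside, Fst was called under every alternative but the methods' t-test and whenever an array was left out. For the WS1442 effect between time points, Fst was called with only probes above background on all arrays (1 member, adjusted p = 0.0499 by limma) and when arrays were left out in part (0 to 1). Replicate numbers did not pair the arrays (correlations of deviations from -0.224 to 0.284). The replicate block changed no count of members called, Inhba left aside.

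Signs turned only for values that were not called. Fstl3 with WS1442 was 0.01 with normexp at 6 h and 0.01 with array weights for the time difference. At 6 h with MeOH eluate, 75th percentile scaling gave 0.00 for Fstl1 and -0.01 for Inhba, and the replicate block gave -0.06 for Inhba. Fstl4 between the preparations at 24 h was -0.05 with slide row as a block and -0.23 to 0.35 without 1 array. Omitting 1 array turned these other values within the ranges given. Against DMSO at 6 h they were -0.29 to 0.22 for Fstl3 and -0.58 to 0.52 for Inhba with WS1442, and 0.00 to 0.11 for Fstl1, -0.11 to 0.40 for Fstl3, -0.01 to 0.47 for Inha and -0.46 to 0.64 for Inhba with MeOH eluate. Against DMSO at 24 h they were -0.09 to 0.01 for Fstl1 and -0.17 to 0.03 for Fstl3 with WS1442, and -0.06 to 0.04 for Fstl1 and -0.27 to 0.07 for Inhbb with MeOH eluate. Between the preparations they were -0.42 to 0.06 for Inha and -0.09 to 0.37 for Inhba at 6 h, and -0.04 to 0.08 for Inha and -0.01 to 0.05 for Fstl1 at 24 h. For the WS1442 time difference they were -0.29 to 0.22 for Fstl3 and -1.05 to 0.05 for Inhba.

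The 2 DMSO arrays per time point, and signals near background for Inhba and for Fstl4 in DMSO at 24 h, limit these comparisons. Where 1 DMSO array was left out, the remaining one was assumed to vary like the other groups. A fit between time points could not be made within 1 time point or by the methods' t-test, and the filter on all 16 arrays left no value for Inhba and Fstl4.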
